A study of Mus musculus with 6 samples.

Results

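The presynaptic vesicle release genes examined here are *Syt1*, *Syt2*, *Cplx2*, *Nsf*, *Vamp2*, *Nrxn3*, *Syn3* and *Snap47*, in mouse brain. Their probe sets were taken by annotation: a probe set belongs to a gene if that gene is its single symbol. All 8 genes were found, among 5017 genes with a symbol, and together they hold 108 of the 58919 probe sets tested, from 5 for *Snap47* to 26 for *Nrxn3*. Below, all genes and all probe sets are those of the deposited table, which has 65535 rows. Many genes are not in it: of 120 other genes listed for their link to release, 27 were found. The 8 genes lie on chromosomes 1, 10, 11, 12 and 13. Whether the table covers the whole array was not checked. Total RNA of brain was hybridised to 6 one-colour exon-level arrays. Knockout arrays 1 to 3 carry the genotype label APPPS1-FVBxABCC1, and control arrays 1 to 3 carry APPPS1-FVB. Both groups thus share the APPPS1 transgenes, which are driven by a *Thy1* promoter active in neurons and give rise to amyloid plaques, and no group without them was measured. By title and genotype the knockouts lack *Abcc1*, which encodes an efflux transporter of the ATP-binding cassette family. *Abcc1* itself was not analysed here, so the labels were not checked against it. Sex and age are not labelled, and no label ties an array to its own mouse, so each p-value reflects the spread among these samples alone.

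Transmitter release is the fusion of a filled synaptic vesicle with the presynaptic membrane. The vesicle protein synaptobrevin pairs with syntaxin and a SNAP-25 type protein into a SNARE complex that pulls the membranes together, complexin holds that complex ready, and synaptotagmin triggers fusion when calcium enters. Afterwards the ATPase NSF takes the complex apart for another round, while synapsins tether the reserve vesicles and neurexins link the terminal to its postsynaptic partner.

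The median log2 signal of an array was 7.04 to 7.09, and the signals were used as deposited. The neuronal markers *Map2*, *Nefh* and *Camk2b*, the 3 of 12 fixed that were measured, averaged 10.46, 9.14 and 10.03 in knockouts, against 10.49, 9.15 and 9.99 in controls. One array of each group stood apart. *Gabra6*, a GABA receptor subunit gene of cerebellar granule neurons, was at 5.74 in knockout 2 and 6.70 in control 3, and between 3.53 and 3.87 on the other 4 arrays. *Fat2*, another gene of these neurons that was looked up after *Gabra6* had been seen, was at 5.44 in knockout 2 and 5.73 in control 3, and between 4.77 and 5.07 on the other 4. The gene mean differences of the vesicle release genes, and the medians of the release lists and of several marker lists, are therefore also given without these 2 arrays. In RNA of whole tissue, fewer cells of a type and less RNA per cell cannot be told apart.

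No vesicle release gene passed the test in the knockout. Averaged over its probe sets, each gene differed between the groups by little: from 0.940-fold for *Snap47* to 1.09-fold for *Syt2*, and the 95% intervals of all 8 genes span equality. The outermost bounds of these intervals were 0.860-fold for *Snap47* and 1.23-fold for *Syt2*. By limma with Benjamini-Hochberg adjustment over all genes, 0 of 8 had an adjusted p below 0.05 (range 0.443 to 0.925) and 0 had a raw p below 0.05. Over all 5017 genes 0 passed too (0%), while 7.95% were higher and 6.12% lower at a raw p below 0.05. The median log2 difference was 0.037 over the 8 genes and -0.0044 over all genes. Of the 8, 5 were higher and 3 lower, where 48.2% of all genes were higher. Leaving out knockout 2 and control 3 also gave 0 of 8 past the threshold, with 6 higher and 2 lower.

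**Figure D1:**
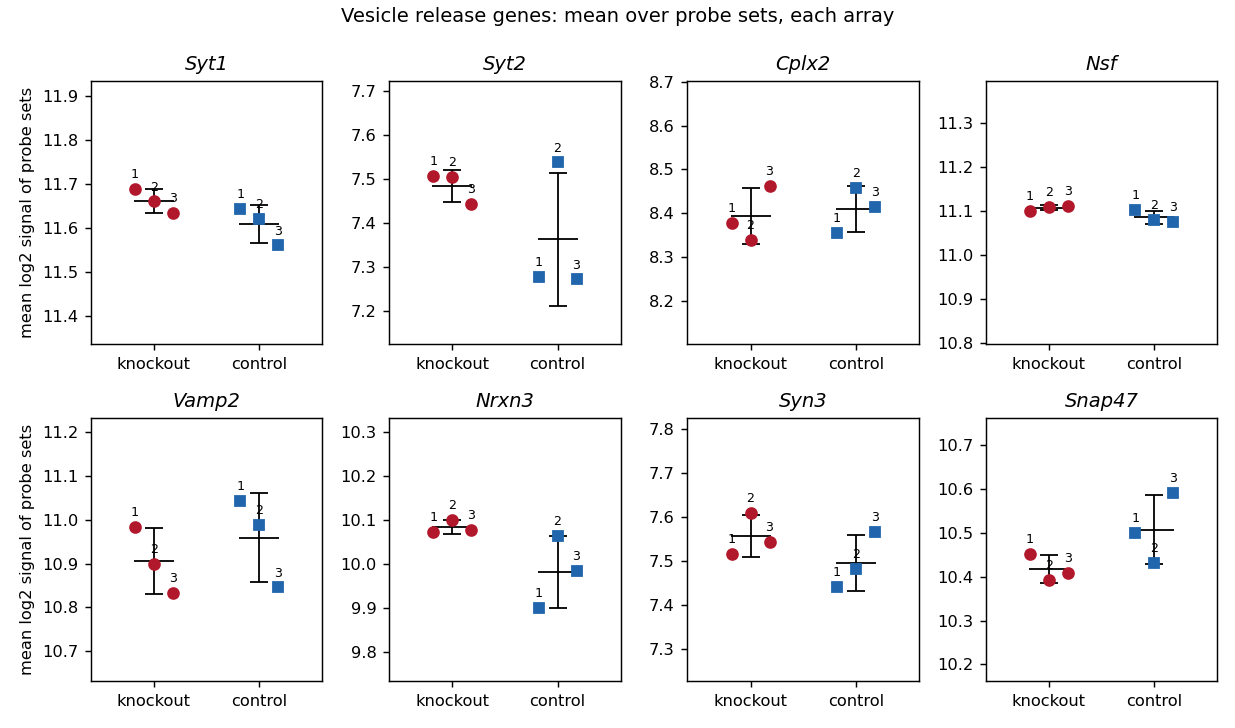
Mean log2 signal over all probe sets of each gene (vertical axes, each 0.6 log2 units tall and not starting at 0) on knockout arrays (circles) and control arrays (squares), numbered 1 to 3; horizontal bars are means and whiskers SDs. The groups overlap in every panel but that of *Nrxn3*, where the lowest knockout lies at 10.07 against 10.06 for the highest control.

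Single probe sets gave the same picture. Of the 108, 0 had an adjusted p below 0.05 (smallest 0.555), where 3 of all 58919 did, or 0.00509%. At a raw p below 0.05 there were 3 higher and 1 lower, together 3.70% of the 108, against 4.75% higher and 2.94% lower of all probe sets. All 3 knockout values lay above all 3 control values at 13 of the 108 (12.04%) and below them at 3 (2.78%), where the shares of all probe sets were 7.94% and 5.52%. The knockout mean was higher at 77 (71.3%), lower at 30 and equal at 1, where 52.0% of all probe sets were higher. The median log2 difference was 0.037, against 0.010 over all probe sets. Probe sets of a gene share the same 6 arrays, so these counts are not of independent values. Differences stayed within 0.25 log2 units at 100 of the 108, or 92.6%, against 83.4% of all tested probe sets that were above the silent background. That background is a signal of 5.02, the 95th percentile over 178 probe sets of olfactory receptor genes, which are largely silent in brain. Of the 108 probe sets, 107 lay above it, against 76.1% of all tested probe sets. The shares of all probe sets given above for p-values, overlap and direction include the dim ones, and were not taken without them.

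**Figure D2:**
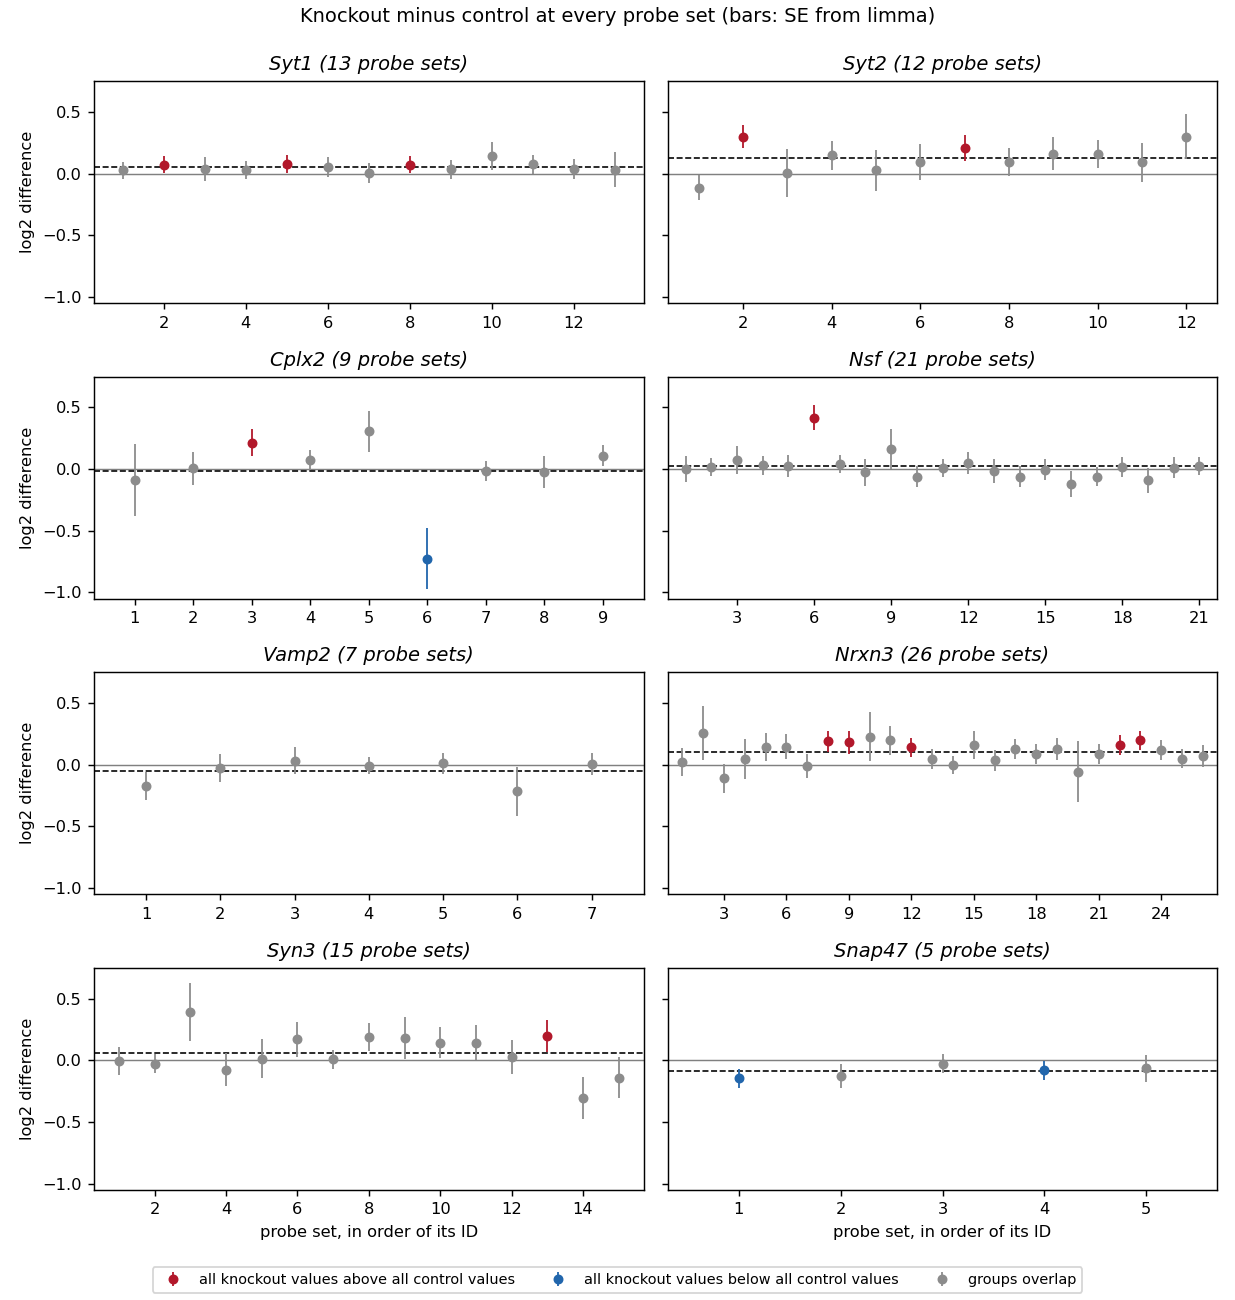
Log2 difference, knockout minus control, at each of the 108 probe sets in order of probe set ID (points, with SE from limma); dashed lines are the gene's mean difference. Most points lie close to 0, and the outermost are *Nsf* probe set 6 at 0.42 and the dim *Cplx2* probe set 6 at -0.73.

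The calcium sensors come first. *Syt1* encodes synaptotagmin 1, the sensor of fast release in forebrain neurons, and was bright at all 13 probe sets, with means from 10.59 to 12.41. Its gene mean was 11.69, 11.66 and 11.63 in knockouts 1 to 3, against 11.64, 11.62 and 11.56 in controls 1 to 3. The groups overlap, with the 2 highest values in knockouts and the lowest in control 3. The means were 11.66 ± 0.027 in knockouts and 11.61 ± 0.043 in controls (SD, n = 3 each), differing by 0.053 in log2 (SE 0.047, adjusted p = 0.642 by limma). All 13 probe sets were higher in the knockout, by 0.0033 to 0.14. Of the genes with at least 5 probe sets, 4.27% had every probe set higher and 4.81% every probe set lower. The probe sets of a gene are read on the same 6 arrays and are not independent of each other. The brightest probe set, 10372328, differed by 0.030, and the largest difference and smallest raw p were at 10372334, with 0.14 (SE 0.11). Without control 3, the lowest of the controls, the gene mean differed by 0.029, and by 0.030 without knockout 2 and control 3.

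*Syt2* encodes synaptotagmin 2, the close relative that serves fast synapses of brainstem, cerebellum and some interneurons. Its gene mean over 12 probe sets was 7.51, 7.50 and 7.44 in knockouts, against 7.28, 7.54 and 7.27 in controls. Control 2 stood above all knockouts and was the highest control at 10 of the 12 probe sets, while controls 1 and 3 lay below every knockout. The means were 7.48 ± 0.036 in knockouts and 7.36 ± 0.15 in controls (SD, n = 3 each), and the log2 difference of 0.12 (SE 0.078, limma adjusted p = 0.512) was the largest of the 8 genes. The difference moved with each control left out. It was 0.21 without control 2 (limma adjusted p = 0.160), 0.080 without control 1 and 0.077 without control 3. Without knockout 2 and control 3 it was 0.067. Of the probe sets 11 were higher and 1 lower, from -0.11 at 10350078 to 0.30 at both 10350079 and 10350089. Probe set 10350079, with the smallest raw p of the gene, was at 6.19, 6.13 and 6.33 in knockouts, against 5.95, 5.83 and 5.97 in controls. The groups do not overlap there, though the limma adjusted p was 0.582. The brightest, 10350084, was at 9.30, 9.22 and 9.17 in knockouts, against 9.11, 9.13 and 8.83 in controls, again without overlap (log2 difference 0.21, SE 0.11, adjusted p = 0.689). Of the 13 hindbrain and cerebellar markers fixed, 9 were measured, and 7 of these, *Hoxb6* with the smallest raw p among them, had a mean signal not above the silent background, so no direction is read from them. The mean signal of the list ran from 4.52 to 4.77 in knockouts and from 4.61 to 4.87 in controls. Their part in the *Syt2* values was not tested.

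The bases before the first annotated start are shown for *Syt1*, where every probe set was higher, for *Syt2*, with the largest difference, and for *Snap47*, described further on, where every probe set was lower. RefSeq's promoter table for GRCm38.p6 holds 10 starts for 6 of the 8 genes, and the 250 bases before a start are given. Capitals mark matches, searched on both strands, to any of 4 motifs, none of which contains another. GGGCGG is the box bound by Sp1-type factors. The CCAAT box is spelled by its name. TATAAA is the core of the TATA box. TGACGTCA is the cyclic AMP response element.
Syt1, chr10:109010976-109011225, minus strand: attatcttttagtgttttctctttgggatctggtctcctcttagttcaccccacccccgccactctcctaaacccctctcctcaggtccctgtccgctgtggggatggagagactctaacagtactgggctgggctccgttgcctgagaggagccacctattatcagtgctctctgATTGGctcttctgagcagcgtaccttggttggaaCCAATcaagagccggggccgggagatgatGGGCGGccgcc
Syt2, chr1:134646362-134646611, plus strand: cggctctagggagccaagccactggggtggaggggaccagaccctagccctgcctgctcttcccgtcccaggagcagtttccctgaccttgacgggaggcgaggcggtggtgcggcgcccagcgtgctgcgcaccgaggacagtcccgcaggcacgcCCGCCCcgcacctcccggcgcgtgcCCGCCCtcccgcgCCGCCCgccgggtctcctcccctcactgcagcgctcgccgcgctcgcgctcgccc
Snap47, chr11:59450035-59450284, minus strand: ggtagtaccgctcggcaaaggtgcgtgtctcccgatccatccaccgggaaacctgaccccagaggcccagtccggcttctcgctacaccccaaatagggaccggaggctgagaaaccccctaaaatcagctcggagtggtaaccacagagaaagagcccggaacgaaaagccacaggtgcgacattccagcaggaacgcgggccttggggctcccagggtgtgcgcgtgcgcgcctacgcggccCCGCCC
GC content was 56.4% before *Syt1*, 76.0% before *Syt2* and 64.0% before *Snap47*, against a median of 52.4% over all 32851 windows of the table. The Sp1 box occurred 1 time in *Syt1*, 3 times in *Syt2* and 1 time in *Snap47*. It was in 4 of the 10 windows of the vesicle release genes, and in 32.7% of all windows. The CCAAT box occurred 2 times in *Syt1*. It was in 2 of the 10 windows, and in 33.8% of all windows. The TATA motif and the cyclic AMP element were in 0 of the 10 windows, and in 12.4% and 1.55% of all windows. A match is a match of letters and no more.

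*Cplx2* encodes complexin 2, which binds the assembled SNARE complex and both clamps and promotes fusion. Its gene mean over 9 probe sets was 8.38, 8.34 and 8.46 in knockouts, against 8.36, 8.46 and 8.41 in controls. The groups interleave, at 8.39 ± 0.063 in knockouts and 8.41 ± 0.052 in controls (SD, n = 3 each), differing by -0.016 in log2 (SE 0.054, adjusted p = 0.925 by limma). The sign rests on 1 dim probe set. Probe set 10405259 was at 2.50, 2.51 and 2.46 in knockouts, against 2.77, 3.11 and 3.77 in controls, the only one of the 108 not above the silent background. Its log2 difference was -0.73 (SE 0.25, limma adjusted p = 0.602), and the groups do not overlap there, with the controls spread widely. Over the other 8 probe sets the gene mean was 9.13 ± 0.074 in knockouts and 9.06 ± 0.066 in controls (SD, n = 3 each), a difference of 0.073. The highest difference was 0.31 (SE 0.16) at 10405258, and the brightest, 10405257, differed by 0.073. Without knockout 2 and control 3 the gene mean differed by 0.013.

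Of the SNARE proteins, *Vamp2* encodes synaptobrevin 2, the vesicle SNARE of most central synapses. Its 7 probe sets averaged 10.98, 10.90 and 10.83 in knockouts, against 11.04, 10.99 and 10.85 in controls. Array 3 was lowest and array 1 highest in each group, and the groups overlap. The means were 10.91 ± 0.076 in knockouts and 10.96 ± 0.10 in controls (SD, n = 3 each), differing by -0.053 in log2 (SE 0.068, adjusted p = 0.757 by limma). Differences ran from -0.22 at 10377437 to 0.033 at 10377434, with 3 probe sets higher and 4 lower. The brightest, 10377436, was at 12.19, 12.16 and 12.04 in knockouts, against 12.19, 12.11 and 12.05 in controls, nearly the same values. The smallest raw p was at 10377432, with a difference of -0.17 (SE 0.11). By the brightest probe set the difference was 0.013 and by the median probe set 0.0067, against the sign of the mean. The mean difference was -0.011 without control 1, -0.11 without control 3 and -0.11 without knockout 2 and control 3.

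*Snap47* encodes a SNAP-25 type SNARE protein found widely in neurons. Its 5 probe sets averaged 10.45, 10.39 and 10.41 in knockouts, against 10.50, 10.43 and 10.59 in controls. Control 3 was the highest array, and control 2 lay below knockout 1, so the groups overlap. The means were 10.42 ± 0.031 in knockouts and 10.51 ± 0.079 in controls (SD, n = 3 each), differing by -0.090 in log2 (SE 0.055, adjusted p = 0.496 by limma). All 5 probe sets were lower, by -0.15 at 10386389 to -0.030 at the brightest, 10386391. At 10386389 the signal was 10, 9.94 and 9.89 in knockouts, against 10.11, 10.05 and 10.11 in controls, without overlap (SE 0.076, limma adjusted p = 0.684). The gene's difference shrank to -0.049 without control 3 and to -0.036 without knockout 2 and control 3.

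*Nsf* encodes the ATPase that disassembles used SNARE complexes. Its gene mean over 21 probe sets was the steadiest of the 8, at 11.10, 11.11 and 11.11 in knockouts, against 11.10, 11.08 and 11.08 in controls. The means were 11.11 ± 0.0058 in knockouts and 11.09 ± 0.014 in controls (SD, n = 3 each), differing by 0.021 in log2 (SE 0.043, adjusted p = 0.857 by limma). The brightest probe set, 10391965, differed by 0.020, and the lowest difference was -0.12 at 10391979. One probe set went its own way. Probe set 10391969 was at 11.21, 10.98 and 11.30 in knockouts, against 10.74, 10.75 and 10.75 in controls. Every knockout was above every control, and the 3 controls lay within 0.01 of each other. The log2 difference was 0.42 (SE 0.10), or 1.33-fold, with the smallest raw p of the 108 probe sets, 0.00647, but a limma adjusted p of 0.555. The probe sets next to it by ID, 10391968 and 10391970, differed by 0.027 and 0.043. Without it, the gene mean over the other 20 differed by 0.0015, and their differences ran from -0.12 to 0.16. Without knockout 2 and control 3, the gene mean over all 21 differed by 0.015 and probe set 10391969 by 0.51.

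**Figure D3:**
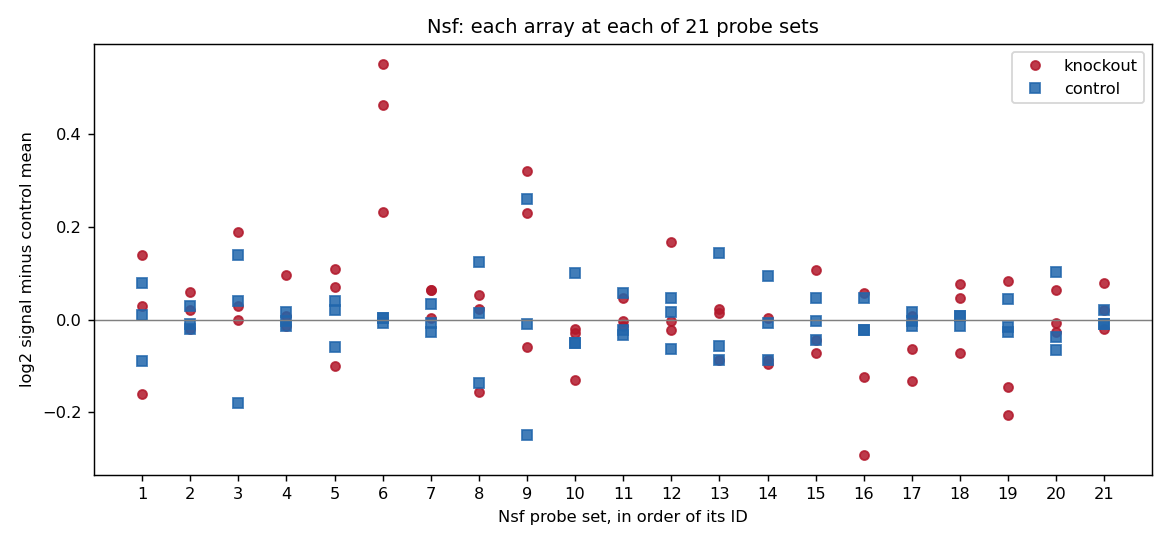
Log2 signal of each array minus the control mean (vertical axis) at each of the 21 *Nsf* probe sets in order of ID; circles are knockouts, squares controls. At probe set 6, which is 10391969, all 3 knockouts lie above the controls, and the groups overlap at the other 20.

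Whether the difference varies along a gene was tested with limma's diffSplice, by an F test per gene. None of the 8 genes passed, where 37 of all 4470 genes did, or 0.828%. The F test had a raw p of 0.0189 for *Cplx2* (adjusted p = 0.454) and 0.0485 for *Nsf* (adjusted p = 0.699), and adjusted values of 1 for the others. *Nsf* passed this F test without knockout 2 (adjusted p = 0.0116) and without knockout 2 and control 3 (adjusted p = 0.0483). With the limma spread of each probe set alone it passed in neither setting (adjusted p = 0.824 without knockout 2). Knockout 2 was the lowest knockout at 10391969, at 10.98. Single probe sets were also set against the rest of their gene. With the spread pooled over the gene as in diffSplice, 10391969 of *Nsf* (deviation 0.42, adjusted p = 0.00337) and the dim 10405259 of *Cplx2* (deviation -0.80, adjusted p = 0.0373) passed, where 0.463% of all probe sets did. With the limma spread of each probe set alone the adjusted p was 0.874 for the *Nsf* probe set (SE 0.11) and 0.892 for that of *Cplx2* (SE 0.27), and 0 of 53097 probe sets passed that way, with 2820 at a raw p below 0.05. The pooled form takes the spread as equal at all probe sets of a gene. For *Nsf*, the SDs in knockouts and controls were 0.20 and 0.26 at 10391972, and 0.040 and 0.026 at 10391965. At 10391969 they were 0.17 and 0.0058, and both forms take the spread as equal in the 2 groups.

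*Syn3* encodes synapsin 3, a phosphoprotein of the reserve vesicle pool that is prominent in young neurons. Its 15 probe sets averaged 7.52, 7.61 and 7.54 in knockouts, against 7.44, 7.48 and 7.57 in controls. Knockout 2 and control 3 were the highest of their groups, and control 3 was the highest control at 12 of the 15 probe sets. These are the arrays with the high *Gabra6* signal, whose part in the *Syn3* values was not tested. The means were 7.56 ± 0.048 in knockouts and 7.50 ± 0.064 in controls (SD, n = 3 each), differing by 0.060 in log2 (SE 0.054, adjusted p = 0.643 by limma). It was 0.034 without knockout 2, 0.095 without control 3, 0.033 without control 1, and 0.069 without knockout 2 and control 3 together. Differences ran from -0.31 at 10371480, a dim probe set with a mean of 5.09 that also had the smallest raw p, to 0.39 at 10371469. At 10371469 the signal was 7.36, 7.27 and 7.09 in knockouts, against 7.32, 6.85 and 6.38 in controls, and the groups overlap. The brightest, 10371477, differed by 0.14 (SE 0.14).

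*Nrxn3* encodes neurexin 3, a presynaptic adhesion protein made in many forms from several starts and by alternative splicing. Its gene mean over 26 probe sets was 10.07, 10.10 and 10.08 in knockouts, against 9.90, 10.06 and 9.99 in controls. This was the only gene of the 8 whose groups do not overlap, though control 2 lay close below the knockouts. Of all genes, 11.4% had every knockout above every control and 8.87% the reverse. An exact permutation test (two-sided) gave p = 0.1, and 3 against 3 arrays can go no lower. The means were 10.08 ± 0.015 in knockouts and 9.98 ± 0.082 in controls (SD, n = 3 each), differing by 0.10 in log2 (SE 0.055, adjusted p = 0.443 by limma). Of the probe sets 22 were higher, 3 lower and 1 equal, from -0.11 at 10397578 to 0.26 at 10397577. The groups did not overlap at 5, all of them higher. Of all probe sets, 52.0% were higher, 7.94% had every knockout above every control and 5.52% the reverse. The 26 probe sets are read on the same arrays, so these counts are not of independent values. The brightest, 10397598, was at 11.83, 11.83 and 11.79 in knockouts, against 11.58, 11.67 and 11.61 in controls, without overlap (log2 difference 0.20, SE 0.074, limma adjusted p = 0.624). It also had the gene's smallest raw p. Control 1 was the lowest control at 16 of the 26 probe sets and control 2 the highest at 19, and the gene's difference was 0.060 without control 1 and 0.14 without control 2. It was 0.094 without knockout 2 and control 3.

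Other genes linked to release, vesicles, endocytosis and adhesion were taken from 5 lists, of which 27 of 120 genes were measured. Not all of them act only at synapses. None of the 27 passed with limma at an adjusted p below 0.05. Of them 18 were higher, 8 lower and 1 equal, where 48.2% of all genes were higher. Their median log2 difference was 0.036, against -0.0044 over all genes. At a raw p below 0.05 by limma there were 2 higher and 0 lower, where 7.95% of all genes were higher and 6.12% lower. Every knockout lay above every control for 4 of the 27 and below for 1, where the shares of all genes were 11.4% and 8.87%. Without knockout 2 and control 3, 18 were higher, 8 lower and 1 equal (median 0.021), and 0 passed. Among active zone and adhesion genes 9 of 11 were higher and 1 lower (median 0.048, or 0.046 without knockout 2 and control 3). *Nlgn2*, which encodes neuroligin 2, a postsynaptic neurexin partner of inhibitory synapses, averaged 9.30, 9.18 and 9.22 in knockouts, against 9.01, 9.11 and 8.99 in controls. The groups do not overlap (log2 difference 0.20, SE 0.057, limma adjusted p = 0.236). *Cacna1e*, the pore of R-type calcium channels, differed by 0.16 (SE 0.069), and *Rab3gap1*, a regulator of the vesicle GTPase Rab3, by -0.021. *Lin7c*, also in this list, was measured by 1 dim probe set and showed no difference.

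Among SNARE-binding genes 2 of 3 were higher (median 0.091, or 0.084 without knockout 2 and control 3). *Stxbp6*, amisyn, a syntaxin binder, was at 9.31, 9.41 and 9.33 in knockouts, against 9.18, 9.29 and 9.15 in controls, without overlap (log2 difference 0.14, SE 0.057, limma adjusted p = 0.334, and 0.084 without knockout 2 and control 3). *Stxbp5*, tomosyn, an inhibitor of SNARE assembly, differed by 0.091, and *Vamp4*, a SNARE of the Golgi and endosomes, by -0.061. All 3 measured genes from the list of calcium sensors and regulators of release were higher (median 0.053, or 0.0080 without those 2 arrays). *Syt16*, of the synaptotagmin family, differed by 0.088. *Doc2b*, a high-affinity sensor of spontaneous release, differed by 0.053, or 0.0080 without those 2 arrays. Whether *Syt16* and *Syt14*, the third gene, sense calcium was not examined. Of 4 vesicle protein genes 1 was higher and 3 lower (median -0.059), with *Atp6v0a1*, a proton pump subunit, at 0.036, *Syngr2*, a synaptogyrin, at -0.082 and *Sncb*, beta-synuclein, at -0.047. Without the 2 arrays *Syngr2* differed by 0.033 and *Sncb* by -0.020, and 2 of the 4 genes were higher and 2 lower (median 0.0026). Of 6 endocytosis genes 3 were higher and 3 lower (median 0.0016, or -0.0040 without the 2 arrays). *Dnm3*, a dynamin, differed by 0.087 and *Cltc*, the clathrin heavy chain, by 0.018. *Amph*, amphiphysin, differed by -0.093 and *Stx6*, an endosomal syntaxin, by -0.042, or -0.094 without the 2 arrays. By the brightest probe set the sign was reversed for *Stxbp5* (-0.063), *Sncb* (0.017), *Cltc* (-0.023) and *Amph* (0.013), and *Doc2b* differed by 0. The other genes given a difference in this paragraph kept their sign.

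**Figure D4:**
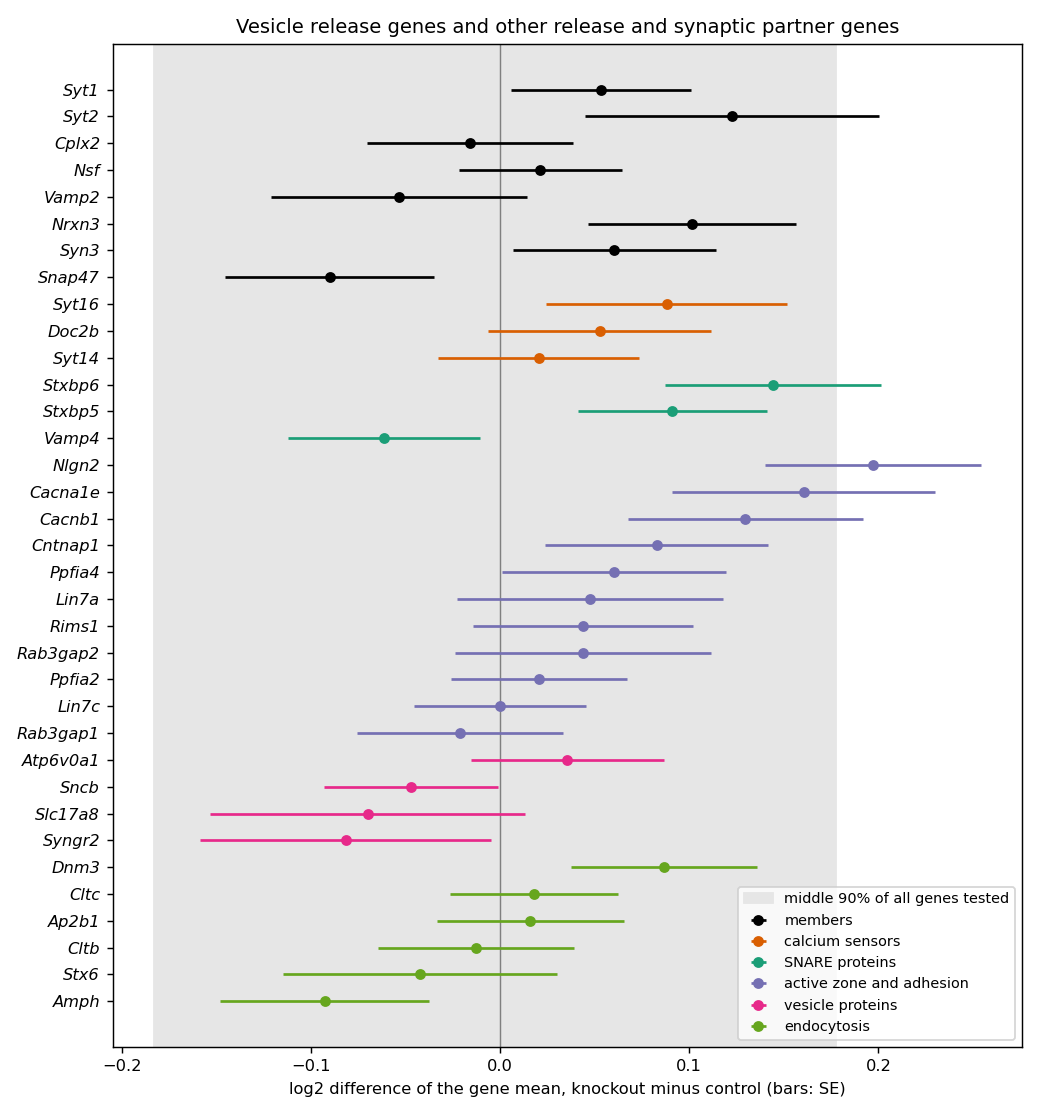
Log2 difference of the gene mean, knockout minus control, for the 8 genes described above (black) and 27 other genes from the 5 lists by group (colours), with SE from limma. The grey band runs from the 5th to the 95th percentile of all genes, -0.18 to 0.18. Of the 35 points only that of *Nlgn2*, at 0.20, lies outside the band, and its product is postsynaptic.

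Markers of several other cell types were lower in the knockout. Astrocyte markers were lower in 3 of 4 measured (of 9 fixed), with mean signals of 9.30 to 9.52 in knockouts and 9.47 to 9.73 in controls, and *S100b*, a calcium-binding protein of astrocytes, had the smallest raw p (log2 difference -0.21, SE 0.066, limma adjusted p = 0.252). *Gfap*, the filament protein of reactive astrocytes, differed by -0.48 (SE 0.25), by -0.24 without knockout 2 and by -0.025 without knockout 2 and control 3, so its size rests on those arrays. Both measured microglial markers of 10 fixed were lower, with means of 5.87 to 6.68 in knockouts and 6.57 to 6.69 in controls; knockout 2 was lowest, and *Cd68*, a lysosomal protein, differed by -0.41 (SE 0.20). Without knockout 2, *Cd68* differed by -0.15 and *Ptprc*, the other microglial marker, by 0.050, so that size and the shared direction rest on that array. All 4 measured meningeal markers of 7 fixed were lower, with means of 6.65 to 6.76 in knockouts and 6.69 to 7.12 in controls, *Col1a1*, a collagen chain, differing by -0.30 (SE 0.10) by gene mean, -0.027 by its brightest probe set and -0.21 without knockout 2 and control 3. *Col3a1*, another collagen chain, differed by -0.18 by gene mean and -0.0033 by its brightest probe set. The 1 measured red cell marker of 5 fixed, *Slc4a1*, averaged 4.97 in knockouts and 5.34 in controls, close to the silent background of 5.02, with a difference of -0.36 (SE 0.073) by gene mean and 0.24 by its brightest probe set. The 1 choroid plexus marker of 6, *Kcnj13*, differed by 0.21 (SE 0.074). *Pecam1*, the 1 endothelial marker of 7, differed by 0.062 and *Cnp*, the 1 oligodendrocyte marker of 11, by -0.053. Neuronal markers ran from 9.83 to 9.90 in knockouts and from 9.84 to 9.89 in controls, with 1 higher and 2 lower (median -0.010), *Camk2b*, a kinase subunit, having the smallest raw p and a difference of 0.045. Without knockout 2 and control 3, median differences were -0.081 for astrocyte, -0.025 for microglial, -0.16 for meningeal and 0.0022 for neuronal markers. None of these genes passed the limma threshold with or without those arrays, and their part in the values of the vesicle release genes was not tested.

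*Syt2* and *Vamp2* varied most over the 6 arrays, with ranges of 0.27 and 0.21 log2 units. The genes with the most similar profiles were sought by the root mean square distance between gene means centred over the 6 arrays, among 5009 genes. For *Syt2* these were *Tmpo*, a nuclear lamina protein gene (distance 0.022 log2 units), and *Marchf10*, a ubiquitin ligase gene (0.026), both highest in control 2. *Marchf10* lay between 4.54 and 4.77 on all 6 arrays, below the silent background of 5.02. For *Vamp2* they were *Fam171a2* (0.017) and *Cnp*, a myelin enzyme gene (0.018), which were lowest in array 3 of each group as *Vamp2* was.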

How the data were processed

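The table deposited by the authors holds log2 signals, 1 per probe set and array; the scale was read from the values, and the submitters' processing notes name MAS5 without a version. How arrays were scaled and the build behind the array are not given in the sources used here. Of 65535 rows, 6616 were taken for control features by their low IDs and left out; 53644 tested probe sets had 1 symbol in the platform annotation, updated through RefSeq synonyms. Knockout minus control was fitted with limma 3.58.1 (R 4.3.3; lmFit, eBayes, two-sided, Benjamini-Hochberg) over all 58919 probe sets, and over 5017 genes by the mean of their probe sets. Intervals are 95% intervals of that fit. Scripts were tested on simulated data, where diffSplice called too many genes, so a form with the spread of each probe set stood beside it. The members, lists and tests were chosen with earlier results of these data known. Named were every member with its brightest, highest, lowest and smallest-p probe sets, up to 2 genes per direction with the smallest raw p from each release list, and 1 from each marker list; *Lin7c*, *Gfap*, *Prox1*, *Drd1* and the cerebellar genes were added after their values were seen. Equal numbers were not taken as pairs in the main fit. Deviations from group means correlated by 0.037, -0.070 and -0.10 between arrays of equal number, and by 0.14 between knockout 2 and control 3. With 3 arrays a group, these values cannot tell whether equal numbers share an origin. The number of arrays limits the precision.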

Additional observations from a re-analysis of the deposited data

How the results depend on the processing

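The 8 gene mean differences and both *Nsf* probe set values stayed on the same side of the threshold under every alternative run. Of these values 155 kept their sign and 11 changed it. The looser threshold, trend and robust moderation and the replicate block cannot change a difference, so signs kept there were fixed in advance. Filters on dim probe sets also left most of the gene means as they were. The smallest adjusted p by limma among the alternatives was 0.160, for *Syt2* without control 2. Signs changed for *Cplx2*, to 0.096 without the dimmest 1 in 3 probe sets, 0.073 without probe sets at or below the silent background, 0.0058 with array weights, 0.073 by the brightest and 0.053 by the median probe set and 0.013 without knockout 2 and control 3, and it ran from -0.051 to 0.011 without 1 array. They also changed for *Nsf*, to -0.0080 with quantile normalization, and for *Vamp2*, to 0.013 by the brightest and 0.0067 by the median probe set. Over all probe sets 3 passed; the count was 7 with median centring, 6 with quantile normalization, 19 without the dimmest 1 in 3, 8 without those at the silent background, 21 with trend and robust moderation, 7 with array weights, 7 at adjusted p below 0.1, 0 with the replicate block, 0 to 4 without 1 array and 0 without knockout 2 and control 3; 0 of the 108 passed in any of these. Genes with unequal probe sets, 37, became 57 at adjusted p below 0.1, 0 with each probe set's own spread, and 29 to 55 without 1 array. Of the 8 members, 0 to 1 passed without 1 array and 1, *Nsf*, without knockout 2 and control 3, though not there with own spread. The cause was not tested. The replicate block gave 28 genes with unequal probe sets and changed no call on the 8 members. The alternatives with own spread and without knockout 2 and control 3, and those on the *Nsf* probe set, were chosen after seeing the data. With 2 arrays a group, the last has little power.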

Other observations

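Of 12 markers of cortex, hippocampus and striatum, 5 were measured; 2 were higher and 3 lower (median -0.055 in log2), with mean signals of 7.85 to 7.94 in knockouts and 7.92 to 7.97 in controls. *Lct*, the lactase gene, averaged 6.22, 6.13 and 6.23 in knockouts, against 6.68, 6.24 and 6.64 in controls, without overlap (log2 difference -0.33, SE 0.11, limma adjusted p = 0.279). *Prox1*, a transcription factor of dentate granule neurons, differed by 0.11 and the dopamine receptor gene *Drd1* by -0.055. Without knockout 2 and control 3, the median over the forebrain list was -0.028 and *Lct* differed by -0.23.

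The high *Gabra6* signal of knockout 2 and control 3 was seen across the gene: 11 of its 12 probe sets in knockout 2 and 12 of 12 in control 3 lay above the other 4 arrays. A list of 11 cerebellar genes, *Gabra6* included, was drawn up after *Gabra6* had been seen, and 5 were measured. Besides *Gabra6* itself, *Fat2* was higher in both arrays than in the other 4. *Slc1a6*, a glutamate transporter gene of Purkinje neurons, was at 6.54, 6.42 and 6.53 in knockouts, against 6.55, 6.61 and 6.76 in controls, and *Rgs8*, also expressed there, at 8.23, 8.13 and 8.004 in knockouts, against 7.997, 8.12 and 8.07 in controls, so neither shared that pattern. *Pcp4l1*, the fifth, was at 9.85, 9.90 and 9.88 in knockouts, against 9.78, 9.85 and 9.75 in controls, lowest in control 3.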
